A study of Homo sapiens with 6 samples.

Results

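Genes of sterol and fatty acid synthesis, and genes tied to their control by SREBP, the sterol regulatory element-binding proteins, were followed in LP-1 cells. The cells carried a guide to AURKA, which encodes Aurora A, a kinase of mitosis. Not every gene followed is itself driven by SREBP. The set holds 39 genes chosen by symbol from pathway knowledge, with earlier results of these data known. Shares within the set are therefore descriptions and not tests. The deposited gene table has 17579 genes, of which 13138 passed the filter on low counts, among them all 39 of the set. The 39 comprise 8 enzymes of the mevalonate pathway, 12 enzymes from squalene to cholesterol, 3 genes of sterol transport and uptake, 5 genes that control SREBP, 10 enzymes of fatty acid synthesis, and LPIN1, an enzyme of glycerolipid synthesis. Of these genes, 9 overlap another protein-coding gene in the RefSeq annotation and 6 have named pseudogene copies, so that reads of these genes could be shared between loci.

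LP-1 is a human multiple myeloma line, labelled as B lymphoblast, and was cultured in 10% serum. The AURKA-guide group (3 libraries, A1 to A3) received a virus carrying a guide to AURKA and is labelled as an Aurora A knockout. The control group (3 libraries, C1 to C3) received a virus carrying a guide without a target, and its samples are titled as vector. Whether the cells were a clone or a pool, and whether the replicates came from separate cultures, is not given in the sources used here, so a p-value here covers the spread between libraries alone, which may be technical. Each library held between 17724174 and 18523594 expected counts, and 1 CPM (a read count divided by the scaled library size) stood for about 18 reads. AURKA itself fell by 0.74 on the log2 scale (SE 0.0488, edgeR adjusted p = 1.55e-06), with 113, 119 and 113 CPM in A1 to A3, against 189, 192 and 195 CPM in C1 to C3.

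Sterol synthesis builds cholesterol from acetyl-CoA through HMG-CoA, mevalonate, the isoprenoid units and squalene. SREBP2 mainly drives the sterol genes and SREBP1 mainly the fatty acid genes. Both are held in the endoplasmic reticulum by SCAP and the INSIG proteins while sterols are plentiful, and are carried to the Golgi and cut there when sterols run low, after which the released part enters the nucleus. Serum in the medium supplies cholesterol, which is known to hold the pathway down. In bulk RNA, a smaller number of expressing cells and less RNA per cell cannot be told apart.

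The promoters of the 4 genes in the set that passed the test are shown here because they moved in opposite directions. Each holds 250 bases before the gene's start and 50 after it, from RefSeq (GRCh38.p14, not the authors' hg19), 5′ to 3′. Capitals mark the letters searched on both strands: CCAAT, the core bound by NF-Y; GGGCGG, a core bound by SP1; TCACNCCAC, a form of the sterol regulatory element; and CACGTG, an E-box. These motifs did not overlap each other.
MSMO1, chr4:165327419-165327718, plus strand: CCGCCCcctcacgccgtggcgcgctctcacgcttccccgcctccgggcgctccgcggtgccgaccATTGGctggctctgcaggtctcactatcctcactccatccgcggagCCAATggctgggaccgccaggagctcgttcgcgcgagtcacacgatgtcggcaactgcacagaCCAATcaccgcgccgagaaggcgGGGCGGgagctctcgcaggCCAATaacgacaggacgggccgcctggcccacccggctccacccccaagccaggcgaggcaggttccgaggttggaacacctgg
HMGCS1, chr5:43313363-43313662, minus strand: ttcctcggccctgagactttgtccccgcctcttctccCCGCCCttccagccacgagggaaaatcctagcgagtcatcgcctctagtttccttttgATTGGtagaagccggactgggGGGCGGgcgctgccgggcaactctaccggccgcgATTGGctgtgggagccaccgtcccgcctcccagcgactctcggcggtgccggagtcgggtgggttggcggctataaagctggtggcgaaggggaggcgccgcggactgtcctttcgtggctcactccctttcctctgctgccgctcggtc
IDI1, chr10:1056655-1056954, minus strand: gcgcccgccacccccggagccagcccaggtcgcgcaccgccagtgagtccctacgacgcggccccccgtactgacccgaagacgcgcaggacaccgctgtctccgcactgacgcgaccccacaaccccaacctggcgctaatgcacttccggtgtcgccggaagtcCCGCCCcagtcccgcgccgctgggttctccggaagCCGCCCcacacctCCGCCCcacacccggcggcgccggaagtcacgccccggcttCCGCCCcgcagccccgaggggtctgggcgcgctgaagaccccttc
TM7SF2, chr11:65111622-65111921, plus strand: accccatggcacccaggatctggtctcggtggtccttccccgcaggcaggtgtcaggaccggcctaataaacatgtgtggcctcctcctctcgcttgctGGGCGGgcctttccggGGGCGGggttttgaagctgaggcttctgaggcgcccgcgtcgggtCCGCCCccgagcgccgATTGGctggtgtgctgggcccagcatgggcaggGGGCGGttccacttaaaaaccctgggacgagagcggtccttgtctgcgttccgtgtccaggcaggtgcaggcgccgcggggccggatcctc

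A single window was taken per gene, and its start was not matched to the transcripts measured here. Other starts, such as those of other IDI1 transcripts, were not searched. The MSMO1 window held 4 matches to CCAAT and the HMGCS1 window held 2, while the IDI1 window had none and the TM7SF2 window had 1. GGGCGG occurred in all 4 windows, and neither TCACNCCAC nor CACGTG occurred in any of them. The RefSeq table held promoters of 35 of the 39 genes; ACAT2, FDFT1, SQLE and FASN were not matched. CCAAT was found in 12 of 17 matched sterol enzymes (70.6%) and in 5 of 9 fatty acid enzymes (55.6%), against 37% of the promoters of 10661 tested genes. The one TCACNCCAC match lay in SREBF2, a 2.86% share of the set against 1.1% of all. GGGCGG was in 85.7% of the set against 69.2% of all, and CACGTG in 14.3% against 10.1%. A match of letters is a description of the window and not a measured binding site.

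In the AURKA-guide libraries, 3 enzymes of sterol synthesis rose and 1 fell: MSMO1, HMGCS1 and IDI1 were higher and the sterol reductase TM7SF2 was lower. With all libraries and no GC correction, no enzyme of fatty acid synthesis and no gene of SREBP control passed the test. The 4 called genes are 10.3% of the 39, against 2.03% of all genes tested (267 of 13138, edgeR quasi-likelihood test, Benjamini-Hochberg adjustment over all genes); 126 genes in all, or 0.959%, were higher and 141, or 1.07%, lower. Of the 39, 29 had a positive log2 fold change and 10 a negative one, with a median of 0.07, while 50% of all tested genes were positive and their median was near 0. All 3 AURKA-guide libraries lay above all controls for 12 of the 39 and below them for 3. Among all tested genes these shares were 10.5% above and 10.2% below, or 20.8% together. An unadjusted p under 0.05 was found for 13 higher and 3 lower genes of the 39, against 7.54% and 8.58% of all tested genes.

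**Figure D1:**
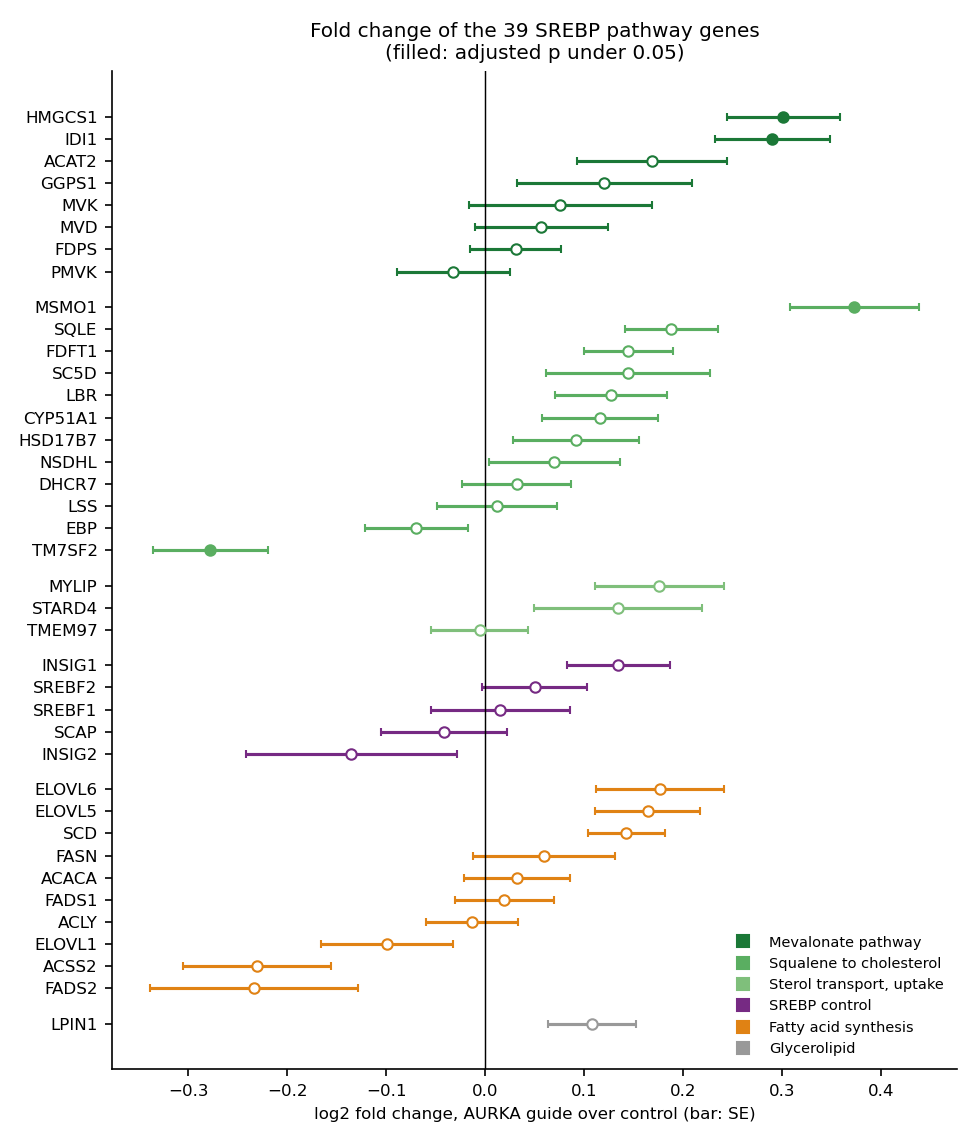
Log2 fold change of the 39 genes, AURKA guide over control, with the standard error as bar (edgeR, n = 3 libraries each); genes are grouped by role and filled points passed an adjusted p of 0.05. MSMO1 (0.37), HMGCS1 (0.30) and IDI1 (0.29) stand at the right and TM7SF2 (-0.28) at the left.

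The mevalonate pathway makes the isoprenoid units. HMGCS1, which condenses acetyl-CoA and acetoacetyl-CoA to HMG-CoA, had 89.7, 92.7 and 93.1 CPM in A1, A2 and A3, against 72.9, 71.0 and 79.7 CPM in C1, C2 and C3. The groups did not overlap, and C3 was the control nearest to the AURKA-guide libraries. The level was 1.232-fold that of control (log2 SE 0.0572, adjusted p = 0.0111).

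IDI1, the isomerase that makes dimethylallyl diphosphate, had 141, 149 and 140 CPM in A1 to A3, against 114, 112 and 127 CPM in C1 to C3. Again all AURKA-guide libraries were higher, with C3 the highest control. The fold was 1.222 (log2 SE 0.058, adjusted p = 0.0155). IDI1 overlaps WDR37 in the RefSeq annotation and has 3 named pseudogenes, and whether the counting used strand is not given in the sources used here, so its value is uncertain to that extent.

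ACAT2, which makes acetoacetyl-CoA, ranked next in this list at 29.9, 35.5 and 33.3 CPM in A1 to A3, against 29.3, 27.7 and 30.7 CPM in C1 to C3. Here A1 lay among the controls, and the log2 difference of 0.17 (SE 0.0755) did not pass (adjusted p = 0.288). ACAT2 overlaps TCP1 and SOD2. The other mevalonate enzymes lay closer to control: the farnesyl diphosphate synthase FDPS at 0.03, the kinases MVK and PMVK at 0.08 and -0.03, the decarboxylase MVD at 0.06 and the geranylgeranyl diphosphate synthase GGPS1 at 0.12 on the log2 scale. Of the 8, 2 rose, none fell, and 7 had a positive value, with a median log2 fold change of 0.10.

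From squalene onward, the enzymes before and after the ring closure differed among themselves. MSMO1, the C4-methyl sterol oxidase, had the highest fold change of the set: 63.3, 67.7 and 66.0 CPM in A1, A2 and A3, against 52.4, 46.2 and 53.5 CPM in C1, C2 and C3. The groups were separate, with C2 the lowest control. The fold was 1.295 (log2 SE 0.0652, adjusted p = 0.00679).

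TM7SF2, one of the pair of enzymes that reduce the C14 double bond of the sterol ring, went the other way. It had 100.2, 98.1 and 95.3 CPM in A1 to A3, against 119, 127 and 110.4 CPM in C1 to C3, so that every AURKA-guide library was lower. It fell to 0.825 of the control level (log2 fold change -0.28, SE 0.0577, adjusted p = 0.0193). LBR, the lamin B receptor of the inner nuclear membrane, has the same C14 reductase activity and was at 155, 163 and 169 CPM in A1 to A3, against 149, 139 and 158 CPM in C1 to C3. The LBR groups overlapped through A1 and C3, and its log2 difference of 0.13 (SE 0.0566) did not pass (adjusted p = 0.284).

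SQLE, the squalene epoxidase and a rate-controlling step, had 256, 249 and 258 CPM in A1 to A3, against 223, 216 and 231 CPM in C1 to C3. Its groups were separate and the log2 difference was 0.19 (SE 0.0467), but the adjusted p of 0.0540 lay just outside the threshold. SQLE passed with the DESeq2 Wald test (adjusted p = 0.0138), which called 2.24% of all genes it tested. FDFT1, the squalene synthase, was at 333, 346 and 338 CPM in A1 to A3 and 299, 307 and 314 CPM in C1 to C3, again without overlap (log2 difference 0.14, SE 0.0449, adjusted p = 0.131). FDFT1 is given in full because its libraries were seen to separate.

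The remaining sterol enzymes did not pass. The lanosterol demethylase CYP51A1 was at 0.12, the desaturase SC5D at 0.14, HSD17B7 at 0.09, NSDHL at 0.07, the reductase DHCR7 at 0.03, the cyclase LSS at 0.01 and the isomerase EBP at -0.07 on the log2 scale. EBP lay below control in all 3 AURKA-guide libraries and HSD17B7 above, with differences of under 0.1 in both. Over the 20 sterol enzymes, 3 rose, 1 fell and 17 had a positive value; the median log2 fold change was 0.10 and the groups were separate for 6 higher and 2 lower genes. Among all tested genes 2.03% were called, and 10.5% lay above and 10.2% below every control.

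**Figure D2:**
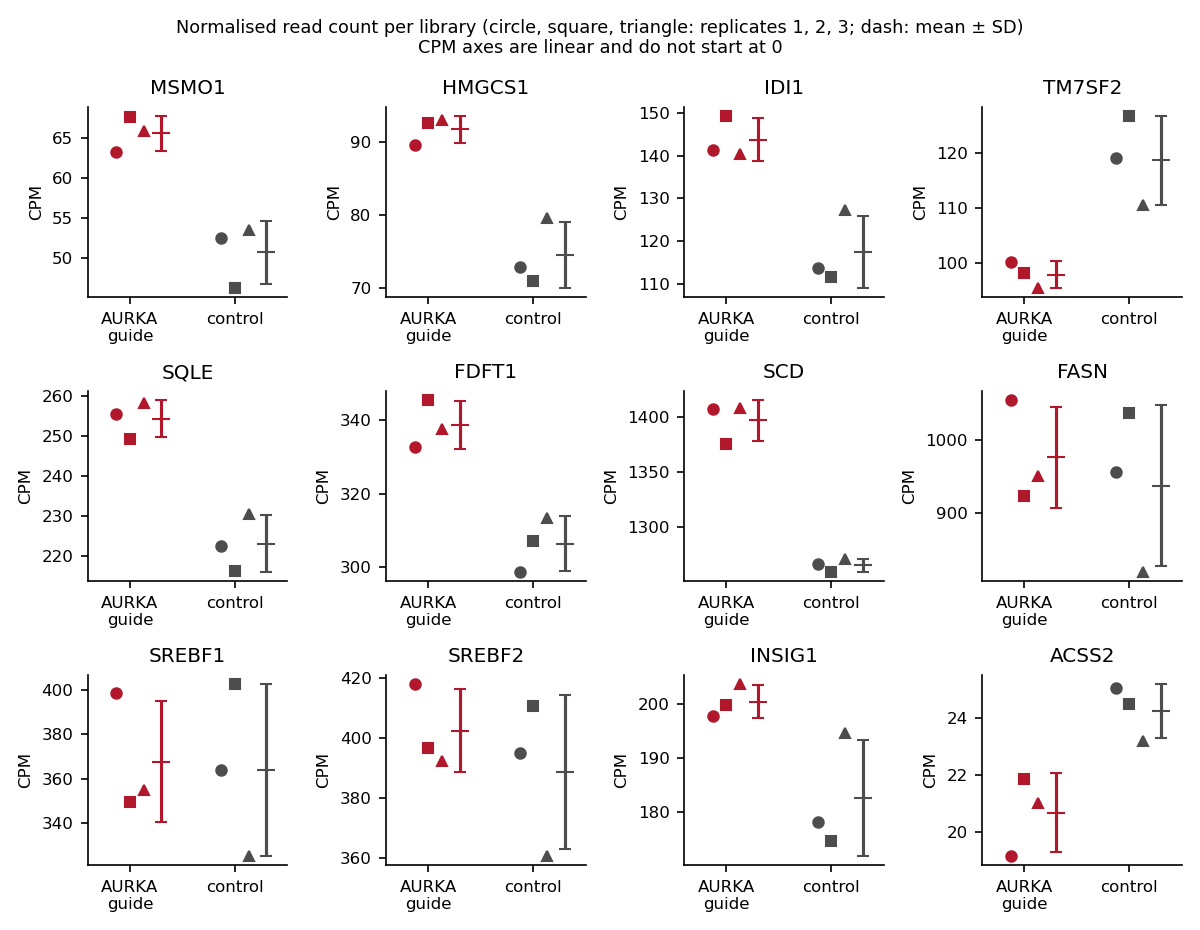
Normalised read count (CPM) of 12 genes in each library, AURKA guide left of control in every panel, with mean ± SD (n = 3) as the dash and bar; axes are linear and do not start at 0. MSMO1, HMGCS1, IDI1, SQLE, FDFT1, SCD and INSIG1 were higher in all 3 AURKA-guide libraries, TM7SF2 and ACSS2 lower, while FASN, SREBF1 and SREBF2 overlapped.

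In fatty acid synthesis the number of called enzymes depended on the fit. It was 0 with all libraries, 3 with the GC correction (FASN, SCD and ELOVL5, all higher) and 4 without C3. Of all genes tested in these fits, 2.03% were called with all libraries, 6.42% with the GC correction and 15.3% without C3. Of 10 enzymes, 0 passed with edgeR and all libraries, where 5 had an unadjusted p under 0.05 (3 higher, 2 lower; 16.1% of all genes had one), and 1, SCD, passed with DESeq2 (adjusted p = 0.0301). SCD, the stearoyl-CoA desaturase that makes oleate, had 1407, 1375 and 1408 CPM in A1 to A3, against 1266, 1259 and 1271 CPM in C1 to C3. Both groups were tight and clearly apart, with a log2 difference of 0.14 (SE 0.0392, edgeR adjusted p = 0.0870).

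ELOVL5, an elongase of polyunsaturated fatty acids, had 205, 216 and 214 CPM in A1 to A3, against 181, 183 and 202 CPM in C1 to C3. The libraries were separate, C3 lying close to A1 (log2 difference 0.16, SE 0.0532, adjusted p = 0.148). ELOVL6, which extends palmitate, was also separate, at 0.18 (SE 0.0646, adjusted p = 0.200).

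ACSS2, the cytosolic acetyl-CoA synthetase, had 19.1, 21.9 and 21.03 CPM in A1 to A3, against 25.1, 24.5 and 23.2 CPM in C1 to C3. It was lower in every AURKA-guide library (log2 difference -0.23, SE 0.0751, adjusted p = 0.15). The other source of cytosolic acetyl-CoA, ATP citrate lyase ACLY, was at -0.01 (SE 0.0465).

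FASN, the fatty acid synthase and a usual readout of SREBP1, had 1055, 924 and 951 CPM in A1 to A3, against 956, 1037 and 819 CPM in C1 to C3. The groups overlapped throughout: A1 and C2 were the highest and C3 the lowest, and the log2 difference of 0.06 (SE 0.072, adjusted p = 0.723) was within that spread. With the GC correction FASN was called higher, at 0.18 (adjusted p = 0.000944). The carboxylase ACACA was at 0.03, the desaturases FADS1 and FADS2 at 0.02 and -0.23, and the elongase ELOVL1 at -0.10. FADS1 and FADS2 overlap each other, and FADS2 was at 7.97 to 9.24 CPM in AURKA-guide and 9.02 to 10.8 CPM in control libraries. The median over the 10 enzymes was 0.03, with 6 positive and 4 negative.

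Side by side, 3 of 20 sterol enzymes rose and 1 fell, and 0 of 10 fatty acid enzymes did either, with medians of 0.10 and 0.03. With the GC correction 6 sterol enzymes were called higher and 1 lower, against 3 fatty acid enzymes higher and 0 lower. Without C3 the counts were 8 higher and 1 lower sterol enzymes, against 3 higher and 1 lower fatty acid enzymes. Calls rose among all tested genes too, from 2.03% with all libraries to 6.42% with the GC correction and 15.3% without C3. The contrast in counts thus depends on the fit, and the difference between the branches was not tested. On the TPM scale, which divides by transcript length and so allows sums over genes, the 20 sterol enzymes together had 2737, 2756 and 2745 TPM in A1 to A3, against 2613, 2565 and 2581 TPM in C1 to C3. The 10 fatty acid enzymes had 1261, 1201 and 1261 TPM in A1 to A3, against 1150, 1153 and 1150.2 TPM in C1 to C3. Both sums were higher in every AURKA-guide library. The ratio of the sterol to the fatty acid sum was 2.21 ± 0.0695 in AURKA-guide and 2.25 ± 0.0246 in control libraries (SD, n = 3 each), which overlap. SCD, the most abundant enzyme of its branch, set much of the fatty acid sum: without it the sums were 759, 717 and 749 TPM in A1 to A3, against 704, 723 and 697 TPM in C1 to C3, with A2 below C2.

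**Figure D3:**
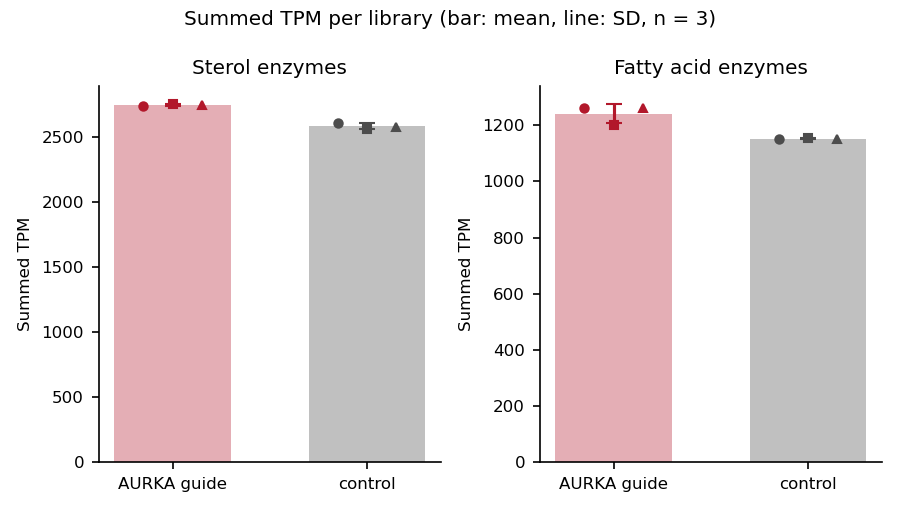
Summed TPM of the 20 sterol enzymes (left) and the 10 fatty acid enzymes (right) per library, with bars for the mean and lines for the SD (n = 3), AURKA guide left of control. The sterol sums averaged 2746 in AURKA-guide and 2586 in control libraries, and the fatty acid sums 1241 and 1151.

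The levels ranged widely within the set. FDPS was the most abundant transcript, at 822 ± 16.9 TPM in AURKA-guide and 787 ± 15.4 TPM in control libraries (SD, n = 3 each), followed in the same groups by SCD at 499.5 ± 13.6 and 443 ± 11.9 TPM and PMVK at 372 ± 5.34 and 372 ± 23.8 TPM. These 3 differed beyond their spread. The least abundant were FADS2, SC5D and STARD4, at 5.54 ± 0.395, 7.79 ± 0.196 and 9.26 ± 0.938 TPM in AURKA-guide and 6.37 ± 0.545, 6.92 ± 0.954 and 8.29 ± 0.902 TPM in control libraries, and neighbours in this order did not differ beyond their spread in the controls. Spread between replicates was larger in the controls: the median coefficient of variation over the 39 genes was 2.78% in AURKA-guide and 6.57% in control libraries, and it was wider in the controls for 30 genes. Over all genes, the control pairs that differed most were those with C3, while C1 and C2 differed little more than the AURKA-guide pairs.

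The genes of SREBP control did not pass the test with all libraries and no GC correction. SREBF1, the gene of SREBP1, had 399, 350 and 355 CPM in A1 to A3, against 364, 403 and 325 CPM in C1 to C3. The range of the controls enclosed all 3 AURKA-guide libraries, and the log2 difference was 0.02 (SE 0.0706, adjusted p = 0.936). SREBF2 had 418, 397 and 392 CPM in A1 to A3, against 395, 411 and 361 CPM in C1 to C3 (log2 difference 0.05, SE 0.0532, adjusted p = 0.681), again overlapping. Both were called higher with the GC correction, SREBF1 at 0.13 (adjusted p = 0.0140) and SREBF2 at 0.11 (adjusted p = 0.0273).

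INSIG1, which holds SREBP back and is itself an SREBP target, had 198, 200 and 204 CPM in A1 to A3, against 178, 175 and 195 CPM in C1 to C3. The groups were separate by a small gap to C3, and the log2 difference of 0.13 (SE 0.0518) did not pass (adjusted p = 0.220). INSIG2, its relative that is not driven by SREBP in the same way, had 14.6, 14.5 and 13.98 CPM in A1 to A3, against 15.2, 13.3 and 18.6 CPM in C1 to C3, an overlap (log2 difference -0.14, SE 0.107, adjusted p = 0.557). SCAP, the escort that carries SREBP to the Golgi, was at -0.04 (SE 0.0637).

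Among the genes of transport and uptake, MYLIP, a ubiquitin ligase that lowers lipoprotein uptake and answers to the sterol sensor LXR, was higher in all 3 AURKA-guide libraries, at 31.7, 30.0 and 31.6 CPM in A1 to A3 and 28.4, 26.6 and 27.6 CPM in C1 to C3 (log2 difference 0.18, SE 0.0652, adjusted p = 0.202). The sterol carrier STARD4 was at 0.13 and TMEM97 at -0.01. LPIN1, the phosphatidate phosphatase of glycerolipid synthesis, was also separate, at 343, 338 and 352 CPM in A1 to A3 and 327, 319 and 312 CPM in C1 to C3 (log2 difference 0.11, SE 0.0448, adjusted p = 0.254).

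Transcript GC content differed between the genes called higher and the gene called lower. Its relation to fold change over the 39 genes was not measured. GC content was read from the longest protein-coding transcript of each gene in GENCODE release 29 and was found for all 39. The 3 genes that rose had GC contents between 38.1% and 41.1%, TM7SF2 had 62.0%, and the median over all tested genes was 48.5%. Among the controls, C3 was the highest library for 18 of the 39 genes, with a median GC of 41.4%, and the lowest for 18 others, with a median GC of 58.3%. The part of GC content in the differences was tested only by the correction that follows.

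With each library's trend on GC taken out, all 4 calls held and 8 more genes passed. The 4 fold changes were smaller in size than without the correction, where they were 0.37 for MSMO1, 0.30 for HMGCS1, 0.29 for IDI1 and -0.28 for TM7SF2. The corrected log2 fold changes were 0.30 for MSMO1 (adjusted p = 0.000144), 0.24 for HMGCS1 (adjusted p = 0.000223), 0.24 for IDI1 (adjusted p = 0.000316) and -0.19 for TM7SF2 (adjusted p = 0.00156). Newly past the threshold were SQLE at 0.16, FDFT1 at 0.13 and MVD at 0.18 of the sterol branch. In the fatty acid branch FASN at 0.18 (adjusted p = 0.000944), SCD at 0.12 and ELOVL5 at 0.11 passed, and of the regulators SREBF1 at 0.13 and SREBF2 at 0.11. The 12 called genes, 11 higher and 1 lower, are 30.8% of the 39, against 6.42% of 12811 genes tested in that fit (823 genes), of which 3.18% were higher. The medians became 0.08 for the sterol and 0.02 for the fatty acid enzymes.

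**Figure D4:**
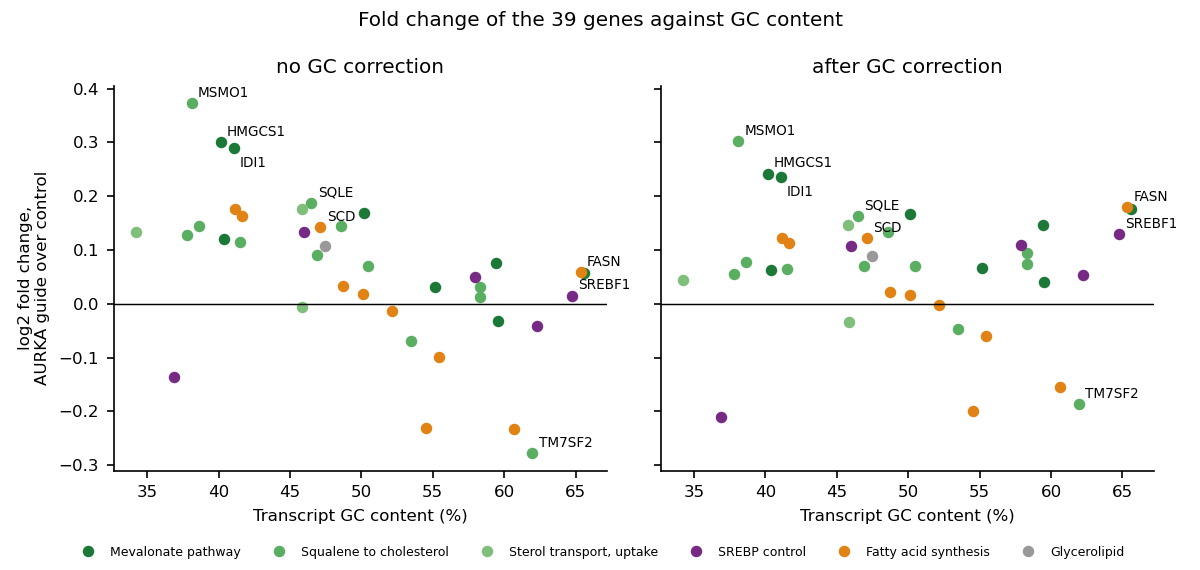
Log2 fold change of the 39 genes, AURKA guide over control, against transcript GC content in percent, without (left) and with (right) the GC correction; colours mark the role. MSMO1, HMGCS1 and IDI1 lie at low GC and stay highest, while FASN, at 65.3% GC, is at 0.06 without and 0.18 with the correction.

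The calls changed with the libraries in the fit. No gene of the 39 passed without A2, when 0.76% of all tested genes did, or without A3, when 0.738% did. Without C1, 1 passed (MSMO1; 0.836% of all genes). Without A1, 2 passed (MSMO1 and HMGCS1; 1.16%), and without C2, 4 passed (1.76%). Without C3, 14 passed (35.9%), when 15.3% of all tested genes did. The fold changes themselves moved less: without single libraries the median over the sterol enzymes ran from 0.08 to 0.13. In the same fits MSMO1 ran from 0.31 to 0.41, HMGCS1 from 0.27 to 0.35, IDI1 from 0.26 to 0.35 and TM7SF2 from -0.33 to -0.23. MSMO1 was not called without A2 (adjusted p = 0.0683) or A3 (0.0539). HMGCS1 was not called without A2 (0.0948), A3 (0.0970) or C1 (0.105). IDI1 was not called without A1 (0.0501), A2 (0.140), A3 (0.0784) or C1 (0.136). TM7SF2 was not called without A1 (0.0585), A2 (0.121), A3 (0.163) or C1 (0.127). In limma on log2(FPKM + 1), IDI1 was not called (adjusted p = 0.0612).

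**Figure D5:**
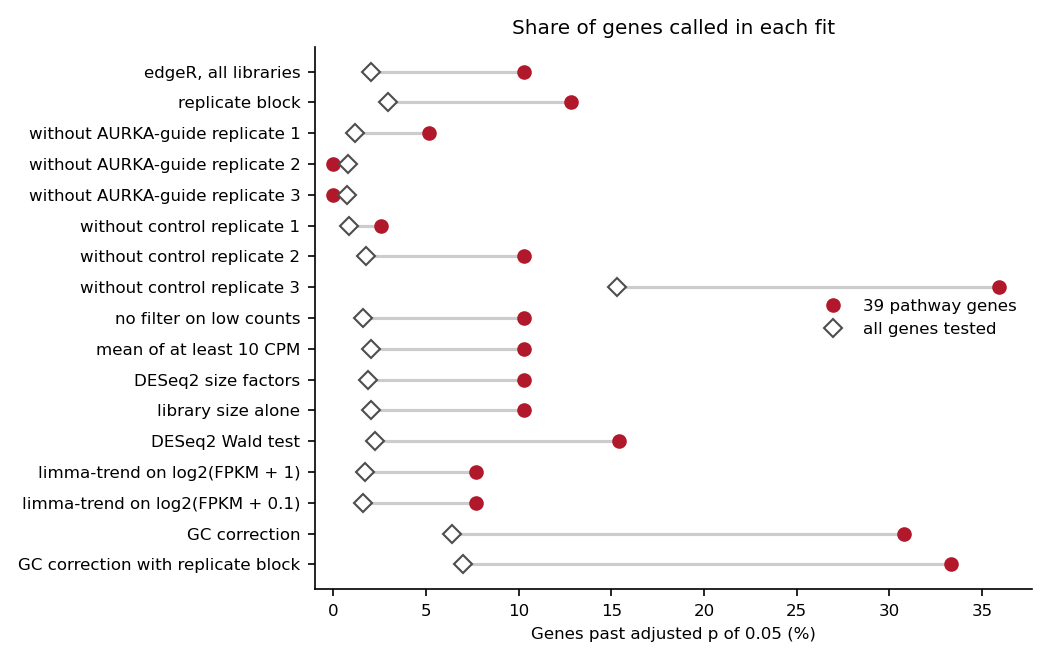
Share of genes past an adjusted p of 0.05 in percent, for the 39 genes (filled circles) and for all genes tested (open diamonds), in each fit. The share of the 39 is 10.3% with all libraries, 0 without A2 or A3, 35.9% without C3 and 30.8% after the GC correction.

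The authors' deposited gene comparison lists 229 genes, against 17579 genes in the deposited gene table of expression, and held 6 of the 39. All 6 had q under 0.05 there, so being listed and being called are not separate facts. The DESeq2 Wald test used here called the same 6 genes, 15.4% of the 39, against 2.24% of all genes it tested. In the authors' deposited table MSMO1 was at 0.37 (q = 0.000299), HMGCS1 at 0.30 (q = 0.00125), IDI1 at 0.29 (q = 0.00116), SQLE at 0.19 (q = 0.0197), SCD at 0.14 (q = 0.0416) and TM7SF2 at -0.28 (q = 0.00372). SQLE and SCD are thus called there and by the DESeq2 Wald test, and not by edgeR with all libraries and neither block nor GC correction.

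Other genes of lipid metabolism did not pass. Of the 92 further genes in 6 lists that passed the low-count filter, 0 were called with edgeR and 12 (13%) had an unadjusted p under 0.05, against 16.1% of all genes. SREBP processing and its cofactors had a median log2 fold change of 0.01 over 19 genes, with the coat protein SEC23A at 0.14 (SE 0.0655) and the NF-Y subunit NFYC at 0.07 (SE 0.0579). Isoprenoid use had a median of -0.05 over 13 genes, 11 of them negative, with the geranylgeranyl transferase subunit RABGGTA at -0.14 (SE 0.0707) and PGGT1B, of another geranylgeranyl transferase, at 0.14 (SE 0.0841). NUS1, a subunit of the enzyme that makes dolichol precursors, was at -0.05 and passed as lower with the GC correction (-0.13, adjusted p = 0.0440); it was named after its values were seen. Among 9 tested genes of cholesterol export, storage and LXR, the exporter ABCA1 was at 5.28 ± 0.459 CPM in AURKA-guide and 3.65 ± 0.606 CPM in control libraries (SD, n = 3 each), without overlap (log2 difference 0.53, SE 0.151, adjusted p = 0.0973), and passed with the GC correction (adjusted p = 0.0455). ABCA1 was named after its values were seen, since its mean lies under 5 CPM. LXR beta, NR1H2, was at -0.20 (SE 0.0751) and the cholesterol esterifying enzyme SOAT1 at 0.14 (SE 0.0729). With the GC correction SEC23A was at 0.06, NFYC at 0.08, RABGGTA at -0.06 and PGGT1B at 0.05. In the same fit NR1H2 was at -0.10 and SOAT1 at 0.09, and none of these genes passed.

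Over 20 tested genes of other fatty acid synthesis the median was -0.04, with 9 positive and 11 negative. Unadjusted p was under 0.05 for 3 higher and 3 lower genes, against 7.54% and 8.58% of all tested genes. The groups were separate for 3 higher genes and 1 lower. The smallest p belonged to the mitochondrial citrate carrier SLC25A1 at -0.20 (SE 0.0682, groups overlapping) and the desaturase relative FADS3 at -0.21 (SE 0.0751). With the GC correction they were at -0.08 and -0.11, and neither passed. Over 15 tested genes of fatty acid oxidation the median was -0.07 and 11 were negative; the groups were separate for 5 lower genes and 0 higher ones, against 10.2% lower and 10.5% higher among all tested genes. ETFB, an electron carrier of that route, was at -0.20 (SE 0.0719, adjusted p = 0.201) and passed with the GC correction (adjusted p = 0.0440). The acyl-CoA dehydrogenase ACADVL was at -0.13 (SE 0.0512), and at -0.06 with the GC correction, where it did not pass. Over 16 genes of glycerolipid synthesis the median was -0.03, with AGPAT1 at -0.12 (SE 0.0534) and LPIN2 at 0.16 (SE 0.0703). With the GC correction AGPAT1 was at -0.09 and LPIN2 at 0.15, and neither passed.

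Individual transcripts were estimated less precisely than genes. Of 155 tested transcripts of the 39 genes, 0 passed with edgeR, where 1 of 43979 transcripts did (0.00227%), and 15 had an unadjusted p under 0.05, against 3.85% of all transcripts. The authors' deposited table, which used DESeq2, called 9 of 201 member transcripts (4.48%) against 1.55% of all transcripts. These include, in log2 fold change, ACACA NM_198834.2 (21.85) and XM_011524703.1 (-23.66), INSIG2 NM_001321329.1 (9.213) and NM_016133.3 (-10.44), and MYLIP XM_005249033.3 (9.085). The ACACA transcripts had their reads almost wholly in A3 and in C2, respectively, and the ACACA gene was at 0.03. The others called were LBR NM_002296.3 (0.21, q = 0.0497) and those of SCD, SQLE and TM7SF2 given below. For 15 genes a single transcript held at least 90% of the gene's TPM in both groups. Of these, in the authors' deposited table, SCD (NM_005063.4) was at 0.14 (q = 8.26e-06), SQLE (NM_003129.3) at 0.19 (q = 0.00957) and TM7SF2 (NM_003273.3) at -0.29 (q = 0.0063). MSMO1 was carried mainly by NM_006745.4, at 44.3 ± 6.38 TPM in AURKA-guide and 32.0 ± 2.33 TPM in control libraries (SD, n = 3 each). The HMGCS1 transcript XM_024446038.1 was at 14.9 ± 3.66 and 9.53 ± 2.41 TPM and XM_011514036.3 of the same gene at 12.02 ± 5.50 and 11.9 ± 1.08 TPM, and the most abundant transcript of IDI1, XM_024447980.1, at 83.02 ± 10.1 and 74.0 ± 13.2 TPM, in AURKA-guide and control libraries. SREBF1 was divided in like shares in both groups, with NM_001321096.2 at 49.99% and 50.4% and NM_004176.4 at 32.1% and 32.5% of its TPM in AURKA-guide and control libraries.

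For INSIG2 the groups differed in which transcript held the reads, while the totals overlapped. NM_016133.3 was listed at 0 TPM in A1, A2 and A3, against 8.67, 9.46 and 12.2 TPM in C1, C2 and C3. NM_001321329.1 was at 8.08, 9.26 and 8.87 TPM in A1 to A3, against 0, 0 and 0.06 TPM in C1 to C3. The sum of both was 8.08, 9.26 and 8.87 TPM in A1 to A3 and 8.67, 9.46 and 12.3 TPM in C1 to C3, with A1 and A2 on either side of C1. GENCODE release 29 maps both to 1 transcript model. Neither passed with edgeR (adjusted p = 0.268 and 0.432), while the authors' deposited table gives q = 3.07e-13 for the first and q = 4.37e-10 for the second. The cause was not tested.

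The authors' deposited transcript table also gives an NSD2 guide over the same controls; its libraries were not analysed here, and because the controls are shared both comparisons are set side by side only. In the authors' deposited table SQLE (NM_003129.3) was at 0.19 with the AURKA guide and -0.20 with the NSD2 guide (q = 0.0837), SCD (NM_005063.4) at 0.14 and 0.01, TM7SF2 (NM_003273.3) at -0.29 and -0.02, and MSMO1 (NM_006745.4) at 0.43 and -0.05. These belong to genes named for their values with the AURKA guide. With the NSD2 guide, the authors' deposited table called 7 of 206 member transcripts (3.4%), against 1.78% of all transcripts. Of FDPS these were NM_001135822.1 (1.378), XM_005244962.1 (-0.3355) and XM_024454072.1 (-0.5239). The others were SREBF1 XM_024450895.1 (21.55), HMGCS1 NM_001324220.1 (8.755), MYLIP XM_005249033.3 (8.633) and ACACA XM_006721853.1 (4.629). With the AURKA guide this MYLIP transcript was at 9.085 and this HMGCS1 transcript at 7.781 (q = 0.133).

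The 7 plasma cell markers lay between 87.7 and 1453 CPM in AURKA-guide and between 94.0 and 1482 CPM in control libraries (group means). One of them, CD38, rose in the AURKA-guide libraries, by 0.38 on the log2 scale (SE 0.0456, edgeR adjusted p = 0.000416), beside the sterol genes. The other 6 had log2 differences between -0.14 (MZB1) and -0.03 (XBP1), none past the threshold. TNFRSF17, IRF4 and PRDM1 lay below every control, as did 10.2% of all tested genes. With the GC correction TNFRSF17 (-0.17, adjusted p = 0.00532) and IRF4 (-0.14, adjusted p = 0.00418) passed as lower and CD38 still as higher (0.33, adjusted p = 7.83e-07). That fit called 6.42% of all genes tested in it. The part of these markers in the results on lipid genes was not tested. Of 22 markers of other cell types in the table, 5 passed the low-count filter, and the highest group mean was 3.39 CPM. Their summed level was 9.76 to 11.5 CPM in AURKA-guide and 9.83 to 11.95 CPM in control libraries. The 6 markers of hepatocytes and adipocytes, cells with high lipid synthesis, had group means of at most 1.07 CPM.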

How the data were processed

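RNA was sequenced from 6 libraries of LP-1 cells with, per the labels, a BGISEQ500 protocol. The submitters' processing notes name BWA, Bowtie2, RSEM and the build hg19; which step each served, their versions, and whether counting used strand are unknown here. The authors deposited, per gene and per transcript, expected counts (44.8% of them not whole), TPM and FPKM. The authors' deposited comparison tables hold log2 fold changes with p-values and q-values from DESeq2, per the file headers.

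Rounded expected counts entered edgeR 4.0.16 under R 4.3.3 (filterByExpr, TMM scaling, the quasi-likelihood F test), and p-values were adjusted by Benjamini-Hochberg over all 13138 genes or 43979 transcripts and a threshold of 0.05. Standard errors were derived from the F statistic. Alternatives included a replicate block, omission of single libraries, no low-count filter, a minimum mean of 10 CPM, and DESeq2 1.42.0 (its size factors, or its Wald test). Scaling by library size alone was also tried, as was limma 3.58.1 on log2(FPKM + 1) and log2(FPKM + 0.1), where 3 libraries had to reach 0.5 FPKM. For the GC correction, a natural spline on GC content (5 df) was fitted to the deviations of every library and used as an offset; 327 tested genes lacked a GC value. Replicates within a group differed by a chi-square of 2.24 to 10.5 per gene (1 is counting noise), so none is a copy. The AURKA-guide pairs were at 2.24 to 2.66 and C1 with C2 at 2.96. The larger values involved C3, at 5.22 with C1 and 10.5 with C2.

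The genes followed and all lists were chosen with earlier results of these data known. Genes named are those past the threshold, the 3 smallest p in each main list, the usual pathway readouts, and the 2 smallest p of at least 5 CPM in each further list; FDFT1, LBR, ELOVL6, MYLIP, LPIN1, ABCA1, NUS1 and the plasma cell markers were added after their values were seen. CH25H and HACD1 were not analysed here.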

Additional observations from a re-analysis of the deposited data

How the results depend on the processing

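Counts of calls depended on the libraries and on GC content. Of all genes, 267 were called, 98 to 2034 without 1 library, 823 after GC correction and 898 with GC correction and replicate block. Of the 39 genes, 4 were called, 0 to 14 without 1 library, 12 after GC correction and 13 with the block added; of the sterol enzymes 4, 0 to 9, 7 and 7; and of the fatty acid enzymes 0, 0 to 4, 3 and 3, with 1 by the DESeq2 Wald test. The 1 called transcript was called in no fit without 1 library (0 transcripts) and not with the replicate block (0). The median of the sterol enzymes stayed positive, at 0.08 to 0.13 without 1 library, while that of the fatty acid enzymes ran from -0.0063 to 0.06.

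Same-numbered libraries did not deviate together (correlations of 0.07, -0.11 and 0.17 for numbers 1, 2 and 3), and not every library correlated best with its own number, so the numbers were not taken as pairs; with the replicate block 385 genes and 5 of the 39 were called, SQLE being added.

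Directions changed for 12 genes, none called in either fit. Without 1 library, LSS ran from -0.047 to 0.048, SREBF1 from -0.063 to 0.096, FASN from -0.032 to 0.14, TMEM97 from -0.021 to 0.0067, PMVK from -0.097 to 0.026, SCAP from -0.11 to 0.019, ACLY from -0.035 to 0.021, FADS1 from -0.0025 to 0.044, MVK from -0.0083 to 0.17, DHCR7 from -0.025 to 0.065, SREBF2 from -0.0042 to 0.093 and INSIG2 from -0.24 to 0.0021. TMEM97 was at 0.00050 and 0.00052 in the FPKM fits, and PMVK and SCAP were at 0.041 and 0.053 after GC correction, with or without the block. The cause of these changes was not tested. With 3 libraries a group and about 18 reads per CPM, differences of the size seen in most of these genes lay within the spread between replicates.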
